A study of Rattus norvegicus with 14 samples.

Results

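Transcription start sites (TSSs) were compared between parental S16 cells and S16 cells in which SOX10 had been deleted (delSOX10), by their Tn5Prime reads in RPM, the reads of a TSS per 1000000 reads of the library. S16 is an immortalized rat Schwann cell line that expresses myelin genes. The delSOX10 cells are 4 clones, labelled 1-1, 1-2, 2-1 and 2-2, each grown from a single sorted cell after CRISPR/Cas9 cutting in the first coding exon of Sox10. All carry frameshift alleles only, so no clone keeps an intact copy, and the control is the uncut parental line, represented by 2 RNA samples. The study derived the clones with 2 guide RNAs and treated the transfected cells with puromycin. No clone that had gone through Cas9, puromycin and sorting with Sox10 intact was among the libraries. An effect of cloning or selection therefore cannot be told apart from one of the deletion. Both groups were grown in medium with 10% serum. Tn5Prime is an RNA-seq method whose reads begin at the 5′ end of the captured transcript, so a cluster of read starts marks a TSS. The table covers 4993 candidate TSSs, which the study chose for lying within 1 kb of H3K4me3-marked chromatin that overlaps a SOX10 ChIP-Seq peak in rat sciatic nerve. Of these, 3875 TSSs exceeded 1 RPM in at least 2 of the 6 S16 libraries and were tested. They lie at 2787 genes, and 139 of them have no gene symbol. Reference levels come from wild-type rats and cells: sciatic nerve of adults aged 6 to 9 months (2 libraries), and primary Schwann cells kept in 5% serum with vehicle (3 libraries) or with 250 µM CPT-cAMP (3 libraries). The question was which of these promoters need SOX10 for their transcript level in Schwann cells.

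SOX10 is a transcription factor with a high-mobility-group domain that is required at every stage of the Schwann cell lineage, from the neural crest to the mature myelinating cell. In myelinating cells it acts with EGR2 on the genes of compact myelin, and it binds both distal enhancers and promoters. Schwann cells wrap axons in myelin, receive neuregulin signals from the axon through ERBB2 and ERBB3, and build a basal lamina on their outer surface. After injury they shut down myelin genes and re-express receptors of immature cells such as the neurotrophin receptor NGFR.

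The 2 parental libraries held 44237100 and 38577616 reads, and the 4 clone libraries between 35087411 and 39337552 reads. A level of 3 reads, used as the floor, corresponded to between 0.0678 and 0.0855 RPM, which covers counting error only, since no molecular identifiers are named for these libraries. Candidate TSSs took between 33.4% and 36.0% of the reads in 5 of the libraries and 28.7% in clone 1-2. On the log2 scale, the parental libraries correlated at Pearson's r = 0.96 across TSSs, pairs of clones at 0.943 to 0.956, and parental with clone libraries at 0.880 to 0.888. TSSs are not independent of each other, and these correlations are given as a description. Parental libraries are RNA samples of 1 line, whereas the clones are separate lines. P-values therefore measure the spread between these samples. Fewer transcripts per cell and fewer cells with transcripts cannot be told apart in bulk RNA.

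In delSOX10 cells, 254 TSSs at 167 genes were lower (6.55% of the 3875 tested) and 64 TSSs at 61 genes were higher (1.65%), by limma on log2(RPM + 1) with Benjamini-Hochberg adjusted p under 0.05. Decreases were the larger changes: 94 of the lower TSSs and 11 of the higher TSSs changed by 3 or more on the log2 scale. At 112 of the lower TSSs the clones kept under 1% of the parental level, at 166 under 10%, and at 13 more than 50%. At 96 of them, every clone library was at or under 3 reads. The groups of libraries did not overlap at any called TSS, as was the case at 29.4% of all TSSs tested. Relative to RPM, the median log2 fold change of all TSSs was -0.18, and -0.05 after median-ratio scaling, so changes of that size are not separate from the scaling. Of the calls, 79.9% were decreases on the RPM scale, against 71.1% after median-ratio scaling and 67.7% with edgeR on recovered reads. With only the second parental library, 152 TSSs were lower and 14 higher, and with only the first, 148 and 9, since 1 control library then stands for the group. Without clone 1-2, 198 were lower and 54 higher.

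**Figure D1:**
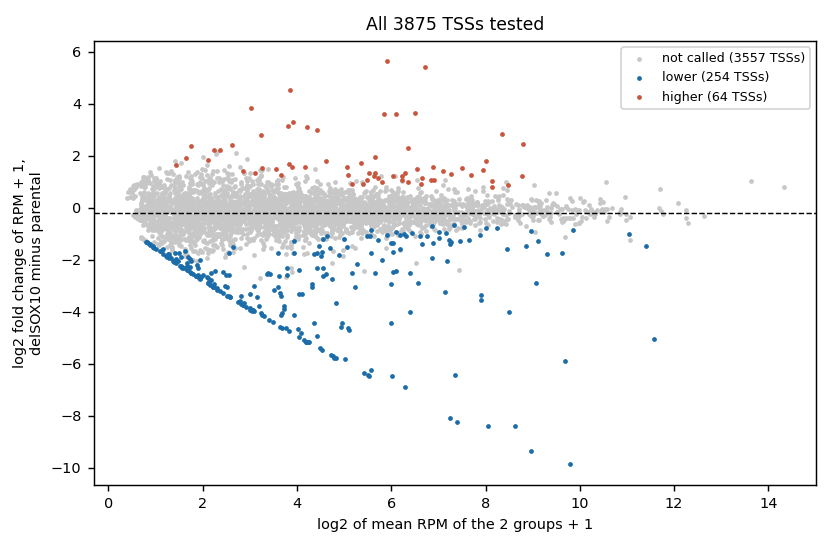
Each point is 1 of the 3875 TSSs tested, with the mean level of both groups on the x axis (log2 of RPM + 1) and the log2 fold change of RPM + 1, delSOX10 minus parental, on the y axis. The 254 lower TSSs (blue) extend further from 0 than the 64 higher ones (red), which reach up to 5.65, and the dashed line is the median of all TSSs (-0.18). The straight lower edge is made of TSSs with no or almost no reads in the clones.

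The lower TSSs had higher levels in nerve than the others by their median, which was 27.4 RPM in sciatic nerve, against 9.12 RPM for TSSs that were not called and 12.6 RPM for the higher ones. In nerve, 25.2% of the lower TSSs exceeded 100 RPM, as did 8.10% of those not called. In primary Schwann cells the lower TSSs had a median of 11.9 RPM in vehicle-treated cells and 31.8 RPM after CPT-cAMP, a cell-permeable cAMP analog used to drive differentiation. For the higher TSSs these medians were 20.6 and 13.4 RPM. These levels come from other cells and, for the primary cells, from another instrument, and are given without a test. The share of TSSs that overlapped the SOX10 peak itself was 51.2% of the lower, 56.25% of the higher and 59.7% of the TSSs that were not called, so the lower TSSs did not overlap the peak more often than the others in this candidate set.

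The Sox10 TSS (chr7:120396387-120396450, rn5, minus strand) had 90.7 and 77.5 RPM in the parental libraries and 0.0255, 0.0254, 0 and 0.114 RPM in the clones, in the order 1-1, 1-2, 2-1 and 2-2, which is kept for all clone values here. The cut lies in the coding sequence, and the transcript's own 5′ end was almost absent in every clone (log2 fold change -6.35, SE 0.37, limma adjusted p = 1.57e-05). A TSS of Gm10863 starts 1519 bases from it on the opposite strand (chr7:120397970-120398133). It had 49.9 and 51.4 RPM against 0.051, 0.0254, 0 and 0 RPM, and was likewise near 0 in all 4 clones (log2 fold change -5.66, SE 0.37, limma adjusted p = 2.95e-05). Polr2f, a subunit of RNA polymerases whose TSS lies 21.9 kb away, had 369.6 and 393 RPM against 286, 185, 217 and 215 RPM, a log2 fold change of -0.77 close to the threshold (limma adjusted p = 0.05).

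Promoter sequences are shown for the first 3 genes in each direction, by size of change, that have a single RefSeq window on the chromosome and strand of the measured TSS. Each is the 250 bases upstream of the RefSeq start on GRCr8, 5′ to 3′. The measured TSSs have rn5 positions and were not placed on GRCr8, so a window need not begin at the measured start. Capitals mark the letters ACAAAG or ACAATG, the core that SOX proteins bind, and TGACNNNGC, the core of the antioxidant response element, on either strand.
Lower in delSOX10 cells:
Cd81: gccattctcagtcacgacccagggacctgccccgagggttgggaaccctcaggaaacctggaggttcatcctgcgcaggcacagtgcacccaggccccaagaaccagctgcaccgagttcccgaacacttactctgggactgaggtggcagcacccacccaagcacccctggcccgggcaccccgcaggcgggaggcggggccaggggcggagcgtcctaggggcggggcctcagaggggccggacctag
Pmp22: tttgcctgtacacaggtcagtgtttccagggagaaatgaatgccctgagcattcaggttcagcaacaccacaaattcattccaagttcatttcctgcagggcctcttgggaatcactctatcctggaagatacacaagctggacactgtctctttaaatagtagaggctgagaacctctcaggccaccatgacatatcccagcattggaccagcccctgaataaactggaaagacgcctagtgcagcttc
Cnp: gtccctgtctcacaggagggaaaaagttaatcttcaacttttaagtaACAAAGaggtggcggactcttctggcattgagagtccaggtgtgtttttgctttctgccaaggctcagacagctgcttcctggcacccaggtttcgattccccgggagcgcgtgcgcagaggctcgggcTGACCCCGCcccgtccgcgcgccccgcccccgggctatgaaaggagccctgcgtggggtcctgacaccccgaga
Higher in delSOX10 cells:
Arl4a: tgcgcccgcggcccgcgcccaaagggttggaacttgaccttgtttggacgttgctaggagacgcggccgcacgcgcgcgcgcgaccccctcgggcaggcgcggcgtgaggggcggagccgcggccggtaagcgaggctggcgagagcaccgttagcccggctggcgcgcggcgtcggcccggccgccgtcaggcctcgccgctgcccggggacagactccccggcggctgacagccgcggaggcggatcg
Slfn2: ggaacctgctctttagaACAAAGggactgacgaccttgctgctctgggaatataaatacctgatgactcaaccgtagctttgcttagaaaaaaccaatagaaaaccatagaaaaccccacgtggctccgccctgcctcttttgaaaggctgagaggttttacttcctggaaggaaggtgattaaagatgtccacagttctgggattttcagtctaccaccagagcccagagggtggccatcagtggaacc
Hspb6: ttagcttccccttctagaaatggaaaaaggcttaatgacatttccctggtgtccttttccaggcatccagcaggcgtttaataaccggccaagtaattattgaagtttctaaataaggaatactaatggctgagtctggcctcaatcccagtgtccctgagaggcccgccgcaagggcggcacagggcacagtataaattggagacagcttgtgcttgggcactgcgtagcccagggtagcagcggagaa

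These windows lie at chr1:207665047-207665296 (plus strand) for Cd81, chr10:48294682-48294931 (plus strand) for Pmp22, chr10:86011254-86011503 (plus strand) for Cnp, chr6:62811298-62811547 (minus strand) for Arl4a, chr10:68450611-68450860 (plus strand) for Slfn2 and chr1:94934122-94934371 (plus strand) for Hspb6. The SOX-type letters occurred in the windows of Cnp and Slfn2, and TGACNNNGC in that of Cnp. RefSeq windows were found for 126 of the 167 genes with a lower TSS, 45 of the 61 with a higher TSS and 2077 of the 2560 others tested. ACAAAG or ACAATG occurred in 18.5% of the 146 windows of lower genes, 14.6% of the 48 windows of higher genes, 16.6% of the 2266 windows of genes not called, and 25.3% of all 33469 RefSeq windows. TGACNNNGC occurred in 22.6%, 14.6%, 13.2% and 10.1% of them, in the same order. These are counts of letters in a window, not of bound sites.

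Most of the tested myelin genes were lower in delSOX10 cells. At each gene's main TSS in nerve, 11 of the 14 tested myelin genes were lower and none was higher, with a median log2 fold change of -5.27. Over all genes with a tested main TSS, 5.5% were lower and 1.99% higher, and the median was -0.17. Mal, a proteolipid of myelin rafts, had 148 and 159 RPM in the parental libraries and 1.35, 0.0508, 0.082 and 0.0855 RPM in the clones, and the highest of the clones was 1-1 (log2 fold change -6.89, SE 0.45, limma adjusted p = 3.24e-05). Mbp, a cytoplasmic protein that compacts myelin, had 356 and 288 RPM against 3.52, 2.24, 1.56 and 4.36 RPM and kept 0.907% of its parental level (log2 fold change -6.42, SE 0.37, limma adjusted p = 1.54e-05).

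Cmtm5, of the same MARVEL family as Mal, had 93.7 and 86.7 RPM against 0.0764, 0, 0.0273 and 0 RPM (log2 fold change -6.47, SE 0.37, limma adjusted p = 1.54e-05). It was at or under 3 reads in every clone. A TSS listed under Il25 starts 230 bases upstream on the same strand and was lower as well, with 92.7 and 84.4 RPM against 0, 0.0508, 0.0273 and 0.0285 RPM (log2 fold change -6.45, SE 0.37, limma adjusted p = 1.54e-05). Mag, an adhesion molecule on the inner myelin membrane, had 35.6 and 33.6 RPM against 0, 0.0254, 0 and 0 RPM, with reads in 1 of the 4 clones (log2 fold change -5.14, SE 0.37, limma adjusted p = 4.71e-05). Bcas1, which marks myelin-forming cells, had 50.4 and 35 RPM against 0.0255, 0, 0.0273 and 0.0285 RPM (log2 fold change -5.40), and the kinase gene Aatk had 55 and 54.2 RPM against 0, 0, 0 and 0.0285 RPM (log2 fold change -5.79). Of the main TSSs that did not pass, the tetraspanin gene Cd9 stood at -1.13, Ndrg1 at -0.95 and the phosphatase gene Mtmr2 at -0.13, so the loss did not extend equally to all genes of the list. With only 1 parental library, 9 of the 14 were called.

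**Figure D2:**
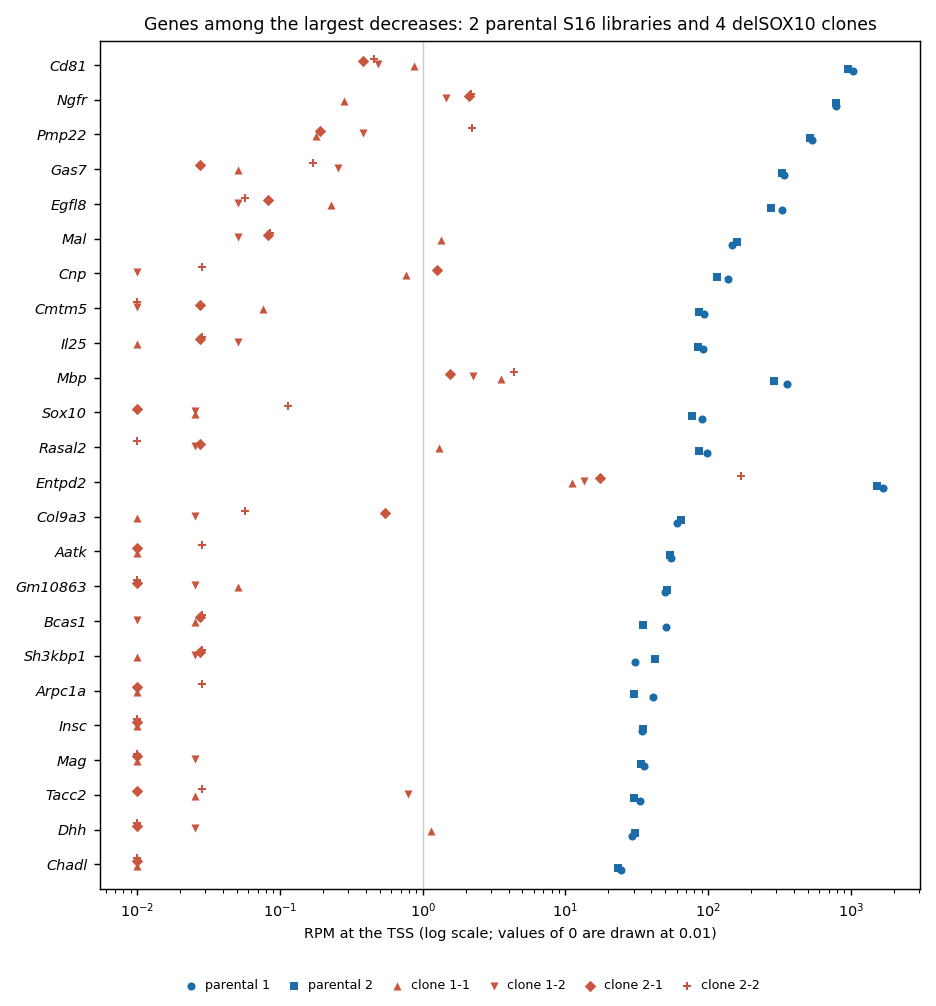
RPM in each of the 6 libraries (log scale, 0 drawn at 0.01) for 24 genes of the 25 with the largest decreases among TSSs that had at least 10 RPM in parental cells. Parental values (blue) lie between 23.2 and 1680 RPM and never overlap the clones (red), which holds for every called TSS. At Entpd2 the clones lie between 11.1 and 169 RPM.

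Receptors and secreted signals of Schwann cells formed a second group. Among receptors, 7 of 11 main TSSs were lower (median -2.57). Ngfr, the neurotrophin receptor of immature and repair Schwann cells, had 792 and 780 RPM in the parental libraries and 0.28, 1.45, 2.1 and 2.19 RPM in the clones (log2 fold change -8.38, SE 0.41, limma adjusted p = 7.73e-06). In the reference samples its level was 7.81 RPM in sciatic nerve, 2622 RPM in vehicle-treated primary Schwann cells and 794 RPM after cAMP, so this gene is low in nerve and high in cultured cells. Erbb3, the neuregulin receptor, had 21.6 and 24.1 RPM against 0.0255, 0, 0 and 0 RPM (log2 fold change -4.56, SE 0.36, limma adjusted p = 7.85e-05), with reads in 1 of the 4 clones. Adgrg1, an adhesion G protein-coupled receptor, kept 11.3% of its level, with 71.6 and 60.4 RPM against 5.71, 4.17, 9.18 and 10.9 RPM (log2 fold change -3.05). Ddr1, a receptor kinase for collagen, was tested at 1 TSS, which the study places within an intron. It had 7.91 and 9.25 RPM against 1.2, 0.407, 1.15 and 0 RPM (log2 fold change -2.57, SE 0.46, limma adjusted p = 0.00813). It was not called with either parental library left out, nor by edgeR. Il1rap (log2 fold change -2.62), Tgfbr3 (-2.67) and Lpar1 (-1.50) were also called lower. Without the first or second parental library, 4 and 3 of the 11 receptors were called.

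Of the secreted signals, 4 of 11 main TSSs were lower and none higher (median -2.13). Dhh, the hedgehog ligand through which Schwann cells organize the nerve sheath, had 29.3 and 30.9 RPM against 1.15, 0.0254, 0 and 0 RPM (log2 fold change -4.67, SE 0.46, limma adjusted p = 0.000267). The table places this TSS on chromosome X of rn5, and RefSeq places Dhh on chromosome 7 of GRCr8. Lgi4, a secreted factor needed for myelination, had 15.5 and 14.2 RPM against 0, 0.0254, 0 and 0 RPM (log2 fold change -3.98), and all 5 of its tested TSSs were called lower. Sostdc1, a secreted antagonist of BMP and Wnt signalling, had 17.9 and 7.44 RPM against 0, 0, 0 and 0 RPM, and Metrn, a glial secreted factor, had 6.71 and 4.48 RPM against 0, 0, 0 and 0 RPM. Clones had no reads at either TSS, so the decreases were at least 158-fold and 70-fold, against a floor of 3 reads per library.

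Extracellular matrix genes split into a lower part and a part that was not called: 7 of 17 main TSSs were lower, none was higher, and the median was -1.48. Egfl8, a secreted protein with EGF-like domains, had 327 and 276 RPM in the parental libraries and 0.229, 0.0508, 0.082 and 0.057 RPM in the clones (log2 fold change -8.10, SE 0.35, limma adjusted p = 3.88e-06), and its 7 tested TSSs were all lower. The collagen gene Col9a3 had 60.7 and 64.4 RPM against 0, 0.0254, 0.546 and 0.057 RPM (log2 fold change -5.80), Chadl, related to the cartilage protein chondroadherin, had 24.4 and 23.2 RPM against 0, 0, 0 and 0 RPM (log2 fold change -4.63), and Col16a1 had 12.5 and 16.8 RPM against 0, 0, 0.0273 and 0 RPM (log2 fold change -3.94). Lower by less were Vwa1 (-3.22), Col6a1 (-2.88) and the laminin chain gene Lamb1 (-1.48). Fibrillar collagens did not pass the test and lay on both sides of 0, with Col5a1 at 0.94, Col1a1 at 0.71, Col5a2 at 0.61 and Col5a3 at -0.87. With only 1 parental library, 5 of the 17 were called.

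For adhesion and junction genes, 8 of 27 main TSSs were lower (median -0.83), and none was higher. Cd81, a tetraspanin, had 1040 and 950 RPM against 0.866, 0.483, 0.383 and 0.456 RPM and lost all but 0.055% of its level (log2 fold change -9.34, SE 0.31, limma adjusted p = 1.06e-06). The related tetraspanin genes Cd9 (-1.13) and Cd63 (-0.51) were not called. Hepacam, a glial adhesion molecule, had 20.9 and 24.3 RPM against 1.78, 0.178, 0 and 0.0285 RPM (log2 fold change -4.12), Itga6, a laminin receptor subunit, had 22.5 and 18.2 RPM against 0.994, 1.5, 0.956 and 3.39 RPM (log2 fold change -3.05), and Sorbs3, an adaptor of focal adhesions, had 10.2 and 7.34 RPM against 0, 0, 0 and 1.14 RPM (log2 fold change -2.996). Itga6 and Sorbs3 lost their call without either parental library, and Hepacam without the second one. Itgb1 (-0.04), the partner chain of many integrins, Tln1 (-0.14) and the dystroglycan gene Dag1 (0.41) were not called. The highest main TSS of the list stood at 2.065, also without a call. At Tln1, a minor TSS was called higher (1.22). Counts with 1 parental library were 5 and 4 of 27.

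Cytoskeletal genes gave 15 lower and 1 higher of 40 main TSSs (median -0.38). Gas7, which bundles actin, had 341 and 329 RPM in the parental libraries and 0.051, 0.254, 0.0273 and 0.171 RPM in the clones (log2 fold change -8.23, SE 0.35, limma adjusted p = 3.88e-06), and a neighbouring cluster on each side was lower as well (-3.03 and -2.56). Arpc1a encodes a subunit of the actin-nucleating Arp complex, and its annotated upstream TSS was not among those tested. The tested TSS had 40.9 and 30.3 RPM against 0, 0, 0 and 0.0285 RPM (log2 fold change -5.17, SE 0.38, limma adjusted p = 5e-05). The study describes it as unannotated, within an intron, and predicts a truncated protein from its transcript. No clone had more than 1 read at this TSS, and its level elsewhere was 360.0 RPM in sciatic nerve, 539.5 RPM in vehicle-treated primary Schwann cells and 254 RPM after cAMP. Tacc2, a centrosome and microtubule protein, had 33.4 and 30 RPM against 0.0255, 0.788, 0 and 0.0285 RPM (log2 fold change -4.80), and Capg, which caps actin filaments, had 702 and 661 RPM against 32, 31.3, 64.3 and 46.1 RPM (log2 fold change -4.003, SE 0.30, limma adjusted p = 5.28e-05). Capg stayed expressed, at 6.37% of its parental level. Gsn, the actin-severing gelsolin, was higher, at 104 and 76 RPM against 267, 171, 253 and 385 RPM (log2 fold change 1.53, SE 0.30, limma adjusted p = 0.0139), a call that was lost without either parental library. Abundant members lay on both sides of the threshold: the thymosin gene Tmsb10 (-0.86), the calponin gene Cnn3 (-0.89) and the tubulin gene Tubb2a (-0.93) were lower, whereas Cfl1 (-0.01), Pfn1 (-0.19), Tuba1b (-0.36) and Actb (0.78) were not called. Tubulin and actin genes have close copies, and how reads shared between copies were counted was not examined. With the first or the second parental library left out, 9 and 8 of the 40 were lower, and 9 with edgeR on recovered reads.

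In small GTPase signalling, 5 of 17 main TSSs were lower and 1 was higher, and the median (-0.22) was close to that of all genes. Arhgap26, a GTPase-activating protein, had 17.7 and 24.6 RPM against 1.2, 1.19, 0 and 4.62 RPM (log2 fold change -3.26, limma adjusted p = 0.0133). Chn2, a Rac-specific chimaerin, had 6.99 and 4.28 RPM against 0, 0, 0 and 0 RPM, with no reads in any clone, which makes it at least 70.3-fold lower (log2 fold change -2.70, SE 0.37, limma adjusted p = 0.0019). Srgap2 had 19.7 and 20 RPM against 4.59, 1.47, 1.58 and 2.71 RPM and the exchange factor gene Arhgef40 68.4 and 51.5 RPM against 14.2, 10.9, 8.5 and 6.53 RPM. The effector gene Cdc42ep3 went the other way, with 15.7 and 21.9 RPM against 81.5, 52.3, 60.9 and 127 RPM (log2 fold change 1.97, SE 0.35, limma adjusted p = 0.00849). With 1 parental library left out, only 1 of these 17 genes was called, and Chn2 held its call in all 14 alternatives that tested it.

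Other genes among the 25 largest decreases had varied roles. Entpd2, an ectonucleotidase that cleaves extracellular ATP, had 1680 and 1520 RPM in the parental libraries and 11.1, 13.5, 17.6 and 169 RPM in the clones (log2 fold change -5.87, SE 0.92, limma adjusted p = 0.00397). Clone 2-2 stood far above the other clones and was still below both parental libraries, and the call was lost when either parental library was left out. Rasal2, a Ras GTPase-activating protein, had 98.1 and 86 RPM against 1.3, 0.0254, 0.0273 and 0 RPM (log2 fold change -6.22, SE 0.47, limma adjusted p = 5.88e-05). Sh3kbp1, an adaptor of receptor endocytosis, had 30.5 and 42.3 RPM against 0, 0.0254, 0.0273 and 0.0285 RPM, and Insc, which orients the spindle in asymmetric division, had 34.5 and 35 RPM against 0, 0, 0 and 0 RPM. Insc had no read in any clone, so it was at least 434-fold lower.

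Schwann cell regulators were divided: 3 of 15 main TSSs were lower, Sox10 among them, and 2 higher (median -0.32). Snai2, a zinc finger gene of the neural crest, had 215 and 222 RPM against 92.8, 57.9, 107 and 77.3 RPM (log2 fold change -1.41, SE 0.25, limma adjusted p = 0.00837), and the immediate early gene Nr4a1 had 27 and 24.7 RPM against 5.07, 1.53, 2.71 and 11.3 RPM (limma adjusted p = 0.0438). Egr2, the master regulator of myelination, was measured at a pair of TSSs. The larger had 21 and 8.4 RPM against 3.44, 0.178, 0 and 3.48 RPM and did not pass (log2 fold change -2.71, limma adjusted p = 0.0622), and the smaller had 2.42 and 2.28 RPM against 0, 0, 0 and 0.484 RPM and did (log2 fold change -1.60, limma adjusted p = 0.0316). The call of the smaller one held in 5 of 14 alternatives, and that of Nr4a1 in 6 of 15. Higher were Id2, an inhibitor of helix-loop-helix factors, with 26.3 and 22 RPM against 87.6, 64.3, 39.9 and 71.2 RPM, and Junb, an AP-1 subunit, with 3.46 and 4.02 RPM against 8.94, 13.9, 10.7 and 19.4 RPM, calls that held in 9 and 5 of 15 alternatives. Jun, the regulator of the repair state of Schwann cells, stood at -0.54 without a call. With 1 parental library, only Sox10 was called in this list. Without clone 1-2 none was higher, and with a filter of at least 5 RPM on the mean 5 were lower.

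Lipid synthesis genes were displaced together but mostly below the threshold. Of 23 main TSSs, 21 had a negative log2 fold change, 4 were called lower and none higher, with a median of -0.996, against -0.17 for all genes. On the same RPM scale, 63.6% of all TSSs tested had a negative log2 fold change. After median-ratio scaling, 20 of 23 were below 0, 3 were called, and the median was -0.85. Without clone 1-2, only 1 was called (median -0.79), and 1 with either parental library left out. Abhd4, a lipase of the phospholipid pathway, had 238 and 225 RPM against 53.1, 52.3, 50.7 and 65.8 RPM (log2 fold change -2.05, SE 0.19, limma adjusted p = 0.000198), and Pmvk, a kinase of the mevalonate pathway, had 74.1 and 85.6 RPM against 49.4, 31.4, 37.2 and 36.9 RPM (log2 fold change -1.04, SE 0.24, limma adjusted p = 0.03). The call of Abhd4 held in all 15 alternatives and that of Pmvk in 9. Other genes of cholesterol synthesis, Fdft1 (-1.14), Hmgcs1 (-1.09) and Idi1 (-1.04), and their regulators Srebf2 (-1.03) and Srebf1 (-1.01), were not called. Fads2, a desaturase, stood at 1.18 without a call.

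**Figure D3:**
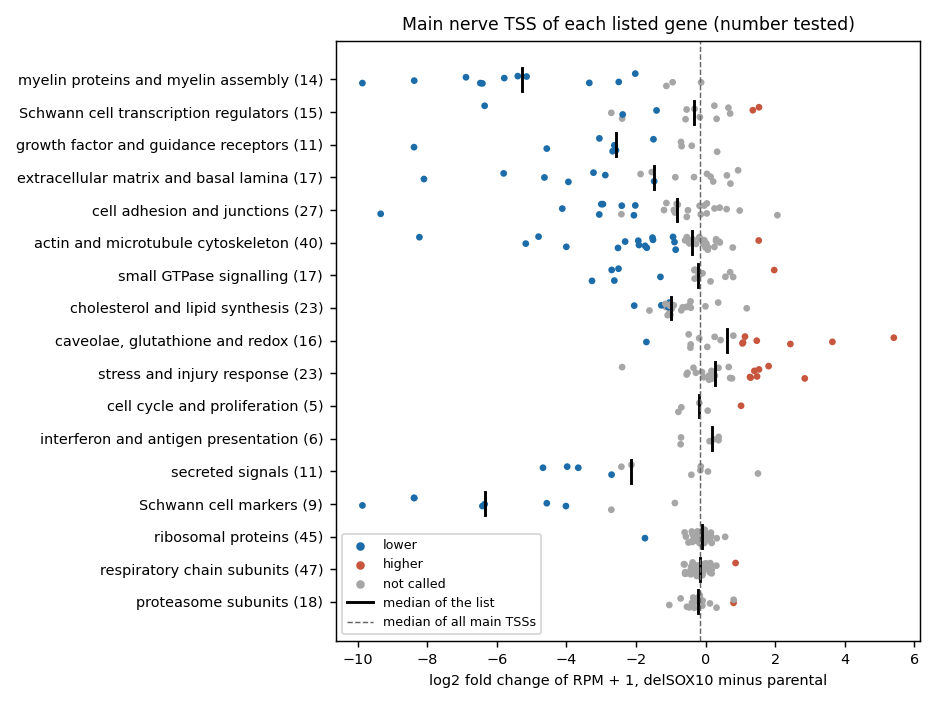
Log2 fold change of RPM + 1, delSOX10 minus parental, at the main nerve TSS of every tested gene of each list (number in brackets), with a black bar at the list's median and a dashed line at the median of all main TSSs (-0.17). Blue points were called lower and red points higher. Myelin genes have a median of -5.27, the caveolae, glutathione and redox list 0.62, and the ribosomal, respiratory chain and proteasome lists lie within 0.1 of the dashed line.

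Redox and caveolar genes included many increases: 7 of 16 main TSSs were higher and 1 lower, with a median of 0.62. Mgst2, a microsomal glutathione transferase, had 2.92 and 4.77 RPM in the parental libraries and 189, 265, 160.2 and 206 RPM in the clones (log2 fold change 5.41, SE 0.27, limma adjusted p = 7.73e-06). Nqo1, a quinone reductase, rose from a level already high in parental cells, with 163 and 115 RPM against 796, 809, 769.6 and 625 RPM (log2 fold change 2.44, SE 0.20, limma adjusted p = 8.55e-05). Hmox1, the inducible haem oxygenase, had 134 and 125 RPM against 394, 287, 413 and 364 RPM (log2 fold change 1.47, SE 0.19, limma adjusted p = 0.00139). Txnrd1, thioredoxin reductase, stood at 1.13 and Nfe2l2, the transcription factor that controls these enzymes under oxidative stress, at 1.08, both called. Sod2 (-0.43), Gpx4 (-0.49) and Prdx1 (0.43) were not called, and the sign differed within the list. The list was chosen with earlier results known and does not hold every redox gene. Outside it, the superoxide dismutase gene Sod3 (-1.60) and Taldo1 (-1.77) were called lower, and the haem transporter gene Slc48a1 (1.35) was called higher. With only 1 parental library, 3 of the 16 were called higher.

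Cav1, the coat protein of caveolae, was higher at both of its tested TSSs. The main one in nerve (chr4:45203429-45203507) had 15.8 and 9.31 RPM against 179, 129.9, 139.6 and 221 RPM (log2 fold change 3.65, SE 0.29, limma adjusted p = 7.82e-05), and the second, downstream of it, had 0 and 0.104 RPM against 30.4, 47.8, 16.9 and 11.8 RPM (log2 fold change 4.53, limma adjusted p = 0.000906). Ehd2, an ATPase at the neck of caveolae, rose by 1.06 on the log2 scale. The caveolar coat genes Cavin1 (0.26) and Cavin3 (0.05) were not called, and Ehd4, a relative of Ehd2 in endosomes, was lower, with 107 and 88.9 RPM against 45.2, 23.9, 21.9 and 31.1 RPM (log2 fold change -1.70).

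Stress and injury genes had 7 of 23 main TSSs higher and none lower (median 0.27). Cited2, a transcriptional coregulator induced by stress, had 79.9 and 73.6 RPM against 721, 388, 565 and 621 RPM (log2 fold change 2.85, SE 0.24, limma adjusted p = 0.000127). Gadd45g, a growth arrest gene, had 124 and 97.1 RPM against 363, 258, 514 and 471 RPM (log2 fold change 1.81), and Ddit3, a factor of the integrated stress response, had 49 and 44.7 RPM against 122, 103, 217 and 112 RPM (log2 fold change 1.48). Its activator Atf4 (1.28), the zinc finger gene Klf6 (1.30) and the early response genes Ier3 (1.40) and Junb (1.54) were also called. Fos (0.71), Cryab (0.17), Hsp90aa1 (0.27) and Xbp1 (-0.28) were not. Cebpd, a C/EBP transcription factor, had 263 and 294 RPM against 76, 31.4, 21.4 and 139 RPM without a call (log2 fold change -2.40, limma adjusted p = 0.0528), and was called lower with a filter of at least 5 RPM on the mean. With only 1 parental library, 1 of the 23 was called, so all but 1 of these calls needed both control libraries.

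**Figure D4:**
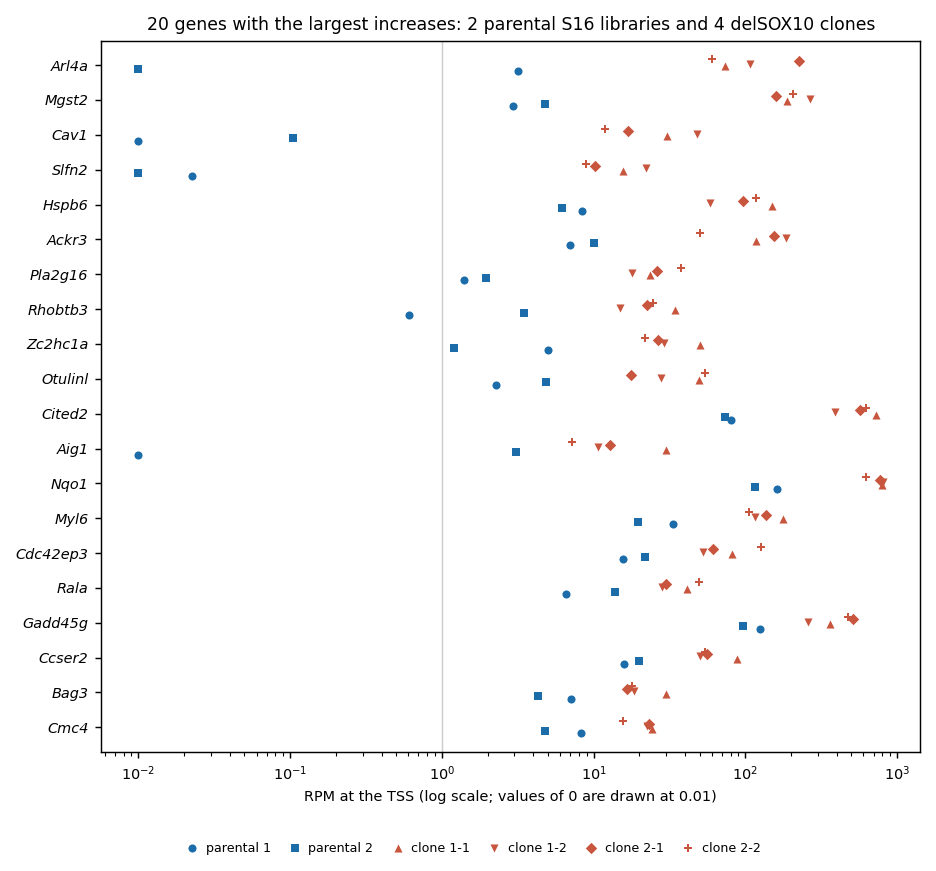
RPM in each of the 6 libraries (log scale, 0 drawn at 0.01) for the 20 genes with the largest increases among TSSs that had at least 10 RPM in the clones. The clones (red) lie between 7.21 and 809 RPM and above both parental libraries (blue) at every gene, which holds for every TSS called higher. Arl4a, Cav1, Slfn2 and Aig1 have a parental library at 0.

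Further genes among the 20 largest increases had low or no signal in parental cells. Arl4a, a small GTPase of the ARF family, had 3.19 and 0 RPM against 73, 107, 227 and 60.3 RPM. Slfn2, a schlafen gene of growth control, had 0.0226 and 0 RPM against 15.6, 22.2, 10.1 and 8.86 RPM, with no more than 1 read in a parental library (log2 fold change 3.83, SE 0.46, limma adjusted p = 0.000849). Hspb6, a small heat shock protein, had 8.36 and 6.17 RPM against 149.7, 58.8, 95.9 and 117 RPM (log2 fold change 3.62, SE 0.36, limma adjusted p = 0.000276). The chemokine scavenger gene Ackr3 had 6.99 and 10.1 RPM against 118, 187, 154 and 50 RPM (log2 fold change 3.61), and the phospholipase gene Pla2g16 had 1.4 and 1.94 RPM against 23.7, 17.8, 26.2 and 37.6 RPM (log2 fold change 3.31). In the reference samples, Pla2g16 stood at 386 RPM in sciatic nerve, 2.08 RPM in vehicle-treated primary Schwann cells and 1.99 RPM after cAMP, the highest nerve level of the 20. Rala, a Ras-like GTPase, had 6.53 and 13.8 RPM against 41, 28.4, 29.8 and 49.4 RPM (log2 fold change 1.82), and Bag3, a cochaperone, had 7.1 and 4.28 RPM against 29.9, 18.4, 16.6 and 18 RPM at a TSS other than its main one, which stood at -0.10. Likewise Myl6, a myosin light chain, was higher at a minor TSS, with 33.5 and 19.7 RPM against 177, 116, 137 and 105 RPM, and its main TSS stood at 0.39. Ackr3, Rala and Bag3 lost their call without either parental library.

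Genes of general cell functions had medians near that of all genes. Of ribosomal protein symbols, 1 of 45 main TSSs was lower and none higher (median -0.09), and that gene, Rps6ka5 (-1.74), encodes a kinase whose symbol matched the pattern. Of respiratory chain subunits, 1 of 47 was called, Ndufa5, at 0.86, and of proteasome subunits 1 of 18, Psmd8, at 0.81 (limma adjusted p = 0.05). These 3 calls held in 6, 6 and 7 of 15 alternatives, in that order. After median-ratio scaling, 25 of the 47 respiratory chain genes were below 0 against 35 on the RPM scale, and the ribosomal median turned to 0.06, so neither has a direction independent of the scaling. Among 5 cell cycle genes tested, Ccnd2, a D-type cyclin, rose, with 182 and 184 RPM against 472, 301, 424 and 322 RPM (log2 fold change 1.02, SE 0.22, limma adjusted p = 0.0201). The Ccnd2 call held in 11 of 15 alternatives and was lost with either parental library left out. None of 6 interferon and antigen presentation genes was called.

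The libraries were checked against markers of Schwann cells and of other cells of the nerve. Of 14 Schwann cell markers, 9 are in the table and were tested, and 7 were lower. The summed level of these 9 genes was 10249 to 10422 RPM in parental cells and 187 to 437 RPM in the clones. S100b, a calcium-binding glial protein, fell by 4.01 on the log2 scale. Of 10 fibroblast markers, 3 are in the table (Col1a1, Pdgfra and Pdgfrb), with a sum of 2262 to 2834 RPM in parental cells and 2978 to 5306 RPM in the clones. Most of it was the main Col1a1 TSS, at 2485 ± 403 RPM (SD, n = 2) and 4137 ± 938 RPM (SD, n = 4), which was not called (log2 fold change 0.71, limma adjusted p = 0.127). In the reference samples this TSS had 103 RPM in sciatic nerve, 857 RPM in vehicle-treated primary Schwann cells and 427 RPM after cAMP. Its level was thus higher in cultured Schwann cells than in whole nerve. Both S16 groups held this marker, and its part in the other results was not tested. Of 10 macrophage markers only Csf1r is in the table, at 0 in the parental libraries and at most 0.966 RPM in a clone. Of 8 endothelial and 8 neuronal markers none is in the table.

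Unequal change of the TSSs within a gene was tested with limma's diffSplice in the 417 genes with 2 or more tested TSSs, and 21 genes (5.04%) passed. In 8 of them all TSSs were lower. There the clones were near 0 throughout, so the log2 fold changes mirror the parental levels of the TSSs rather than a shift between them. They included Egfl8 with 7 TSSs, Cmtm5 with 6 and Gas7 with 3. In 11 genes, lower TSSs stood beside TSSs that were not called. The same limit holds where the uncalled TSS also fell to near 0. At Aatk such a TSS had 1.09 and 1.71 RPM against 0, 0, 0 and 0 RPM. At Mbp it had 1.65 and 8.42 RPM against 1.22, 0, 0 and 0 RPM.

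At Pmp22, which encodes a tetraspan protein of compact myelin, the pair of main TSSs had unequal losses. The upstream one (chr10:49316968-49317054) had 534 and 514 RPM against 0.178, 0.381, 0.191 and 2.22 RPM and the downstream one (chr10:49319494-49319573) 5870 and 5840 RPM against 193, 124, 119 and 343 RPM. The upstream TSS gave 8.33% and 8.09% of the sum of the pair in the parental libraries and 0.0923%, 0.307%, 0.160% and 0.644% in the clones. In nerve this share was 85.8%, in vehicle-treated primary cells 0.312% and after cAMP 0.556%. Cnp, a phosphodiesterase of myelin, had its strongest loss at its second TSS (chr10:88284861-88284975), with 138 and 114 RPM against 0.764, 0, 1.26 and 0.0285 RPM, and a smaller one at the first (chr10:88284002-88284046), with 468 and 400.2 RPM against 43.4, 44.6, 35.6 and 44.1 RPM (log2 fold changes -6.47 and -3.34, diffSplice adjusted p = 1.44e-09). The second TSS made up 21.2% and 20.9% of all Cnp reads in parental cells and at most 3.07% in a clone.

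Outside the myelin genes, Ppdpf lost an internal TSS (chr3:180401493-180401532; 62.6 and 65 RPM against 0.917, 0.839, 1.48 and 4.82 RPM, log2 fold change -4.60), and its main TSS (255 and 225 RPM against 117, 133, 182 and 219.5 RPM) was not called (-0.60; diffSplice adjusted p = 0.000323). Cryab, a small heat shock protein, showed the same at 1 of 17 TSSs, with 21 and 36.4 RPM against 1.32, 0.661, 3.66 and 2.79 RPM, beside a main TSS at 0.17. In Sema4c, a semaphorin, the upstream TSS was lower, with 6.53 and 9.51 RPM against 0.586, 2.21, 0 and 0.314 RPM, and the other TSS stood at 0.07 (diffSplice adjusted p = 0.0185). Snapc2, a subunit of the small nuclear RNA activating complex, had its main TSS lower (-2.47) and a minor one at 1.61 without a call. Ccser2 was the gene with calls in both directions: its main TSS rose, with 15.8 and 19.9 RPM against 88.2, 49.9, 56.2 and 54 RPM (log2 fold change 1.71, SE 0.28, limma adjusted p = 0.00516), and 2 minor TSSs on the same strand fell (-1.95 and -1.91). Tln1, which links integrins to actin, gained at a minor TSS, whose share rose from 23.0% and 21.5% to between 40.1% and 46.5%, and its main TSS was not called (diffSplice adjusted p = 0.0483).

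**Figure D5:**
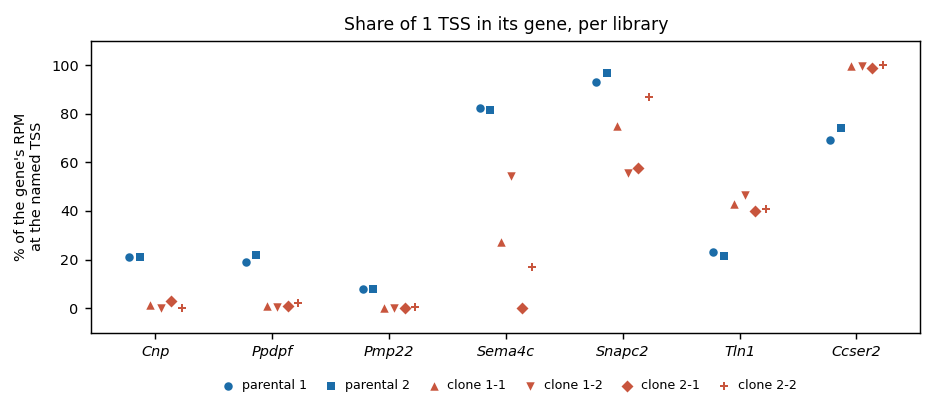
Share of a gene's RPM at 1 of its TSSs (y axis, in % of the sum over the gene's tested TSSs) in each of the 6 libraries, for 7 genes with unequal TSS change. The shares of Cnp, Ppdpf and Pmp22 are near 0 in all clones (red), those of Sema4c and Snapc2 vary between clones, and those of Tln1 and Ccser2 are higher in every clone than in the parental libraries (blue).

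The spread between the 4 clones was measured at TSSs with a mean of at least 10 RPM in the clones. There, the coefficient of variation between clones had a median of 20.6% at 68 lower TSSs, 24.9% at 56 higher TSSs and 24.0% at 1935 TSSs not called. Its largest value at a lower TSS, 147%, was at Entpd2. The labels number the clones in pairs, and clones 1-1 and 1-2 were compared with clones 2-1 and 2-2 in the same model. No TSS passed (0 of 3875, 0.0%), the smallest adjusted p by limma being 0.719, and 245 TSSs (6.32%) had an unadjusted p under 0.05. The 10 TSSs with the smallest p included Mgll, a monoacylglycerol lipase (log2 difference 2.62, clones 2-1 and 2-2 minus clones 1-1 and 1-2), the protease gene Ctsc (1.57), Phospho2 (2.90) and Tymp (2.12), all higher in clones 2-1 and 2-2. Zfyve16 (-2.11), Tgfbi (-1.87), the replication factor gene Rfc4 (-1.36) and the histone gene Hist1h1d (-1.08) were lower there. At Rfc4, the clones had 68.5, 49.8, 21.1 and 23.3 RPM and the parental libraries 47.6 and 58.0 RPM, and at Ctsc 16.2, 15.4, 38.8 and 61.7 RPM against 88.0 and 79.5 RPM. None of these differences holds after adjustment over all TSSs.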

How the data were processed

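Tn5Prime libraries of 2 parental S16 RNA samples and 4 delSOX10 clones were made from total RNA. The deposited values are RPM per TSS, reads scaled to the total of the whole library, as the authors computed them. The submitters' processing notes name cutadapt 1.14, STAR 2.5.2a, SAMtools 1.9, Subread 1.6.1, edgeR 3.24.3 and the genome build rn5. Fold changes and FDR values of the authors' edgeR comparisons were not used. Some deposited S16 values were rounded to 3 significant digits. Whole reads, recovered from the RPM steps, came out whole within 0.1 read for 93.2% to 100% of values. They entered edgeR 4.0.16 (quasi-likelihood) only as an alternative.

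TSSs above 1 RPM in at least 2 of the 6 libraries were fitted with limma 3.58.1 (R 4.3.3; eBayes with trend) on log2(RPM + 1), two-sided, with Benjamini-Hochberg adjustment over 3875 TSSs and a threshold of 0.05. This scale understates the change of low TSSs. TSS use was tested with diffSplice (Simes). The clones were also compared by their label pairs. Named genes were the 25 lower and 20 higher genes with the largest change among called TSSs with non-overlapping groups and at least 10 RPM in the higher group, all TSSs of 8 genes of interest, up to 4 called genes per list and direction, and the genes of the TSS use and clone tests. A few genes that fall under these rules are not reported here and stayed in all fits and counts. Members not called were named for contrast, after their values were seen. Lists were read at each gene's main nerve TSS. Members and lists were chosen with earlier results of these data known. In simulated data with 200 of 3875 TSSs changed, the fit recovered 22% at 2-fold, 74% at 4-fold, 84% at 8-fold and 96% at 16-fold, with 8% false calls. In genes whose TSSs all changed equally, diffSplice still called 9 of 40, and it called 22 of 40 with 1 TSS changed. Alternatives were the pseudocount (0.1, 5), the filter, median-ratio scaling, subsets of clones, each library left out, all 14 libraries in 1 model, a log2 fold change of at least 1 and summed TSSs. Promoter windows are from RefSeq (GRCr8).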

Additional observations from a re-analysis of the deposited data

Results flagged for a closer look

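Among 113 named TSSs in the 4 clones, 15 had 1 clone apart from the other clones by Dixon's test, where at least 1 clone reached 1 RPM. Chance sets apart about 1 in 20 groups if values are normally distributed. Several of the groups had their other clones at or near 0 reads, where that rate does not hold. Clone 1-1 stood apart in 9 of them, clone 2-2 in 4, clone 2-1 in 2 and clone 1-2 in 0. No cause was tested.

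Clone 1-1 was the highest, at low levels, at a minor Cnp TSS (1.07 RPM, the other clones 0 to 0.0285), Rasal2 (1.30 RPM, others 0 to 0.0273), the minor Mbp TSS (1.22 RPM, others 0), a minor Egfl8 TSS (2.19 RPM, others 0 to 0.0285), Mal (1.35 RPM, others 0.0508 to 0.0855), Hepacam (1.78 RPM, others 0 to 0.178) and Dhh (1.15 RPM, others 0 to 0.0254). In the same clone Sox10 had 0.0255 RPM. It was also the highest at the higher TSSs of Bag3 (29.9 RPM, others 16.6 to 18.4) and Ccser2 (88.2 RPM, others 49.9 to 56.2).

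Clone 2-2 was the highest at Entpd2 (169 RPM, others 11.1 to 17.6), the upstream Pmp22 TSS (2.22 RPM, others 0.178 to 0.381), Sorbs3 (1.14 RPM, others 0) and Abhd4 (65.75 RPM, others 50.7 to 53.1). Clone 2-1 was the highest at Ddit3 (217 RPM, others 103 to 122) and the lowest at the main Cnp TSS (35.6 RPM, others 43.4 to 44.6).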

How the results depend on the processing

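None of the 108 named called TSSs reversed its direction under an alternative that tested it. Their groups of libraries did not overlap, so leaving out libraries or changing the pseudocount or filter could not reverse them. The medians of the ribosomal list (-0.09, 0.07 with edgeR) and the cell cycle list (-0.18, 0.04 with edgeR) changed sign. The number of lower TSSs (254) fell to 166 with a filter of at least 5 RPM on the mean, of 2671 TSSs tested, and ranged from 148 to 255 when 1 library was left out, lowest without the second parental library and 152 without the first. The number of higher TSSs (64) was 37 with clones 1-1 and 1-2 only, and ranged from 9 to 55 when 1 library was left out, with 9 without the second and 14 without the first parental library. Genes with unequal TSS use (21) numbered 35 with a pseudocount of 5, 11 with the filter of at least 5 RPM, and 15 to 27 with 1 library left out. Calls between the clone pairs ranged from 0 to 1 with 1 clone left out, 1 without clone 2-1. Where 1 library stands for a group, it is assumed to vary like the other group. The cause of these shifts was not tested, except that the stricter filter tested fewer TSSs.

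The other alternatives gave 172 to 378 lower and 43 to 94 higher TSSs. With edgeR on recovered reads 172 were lower, all among the 254, and 82 higher, of which 60 were among the 64. Of 108 named called TSSs, 50 kept their call in every alternative that tested them, and 26 lost it only without a parental library. No paired analysis was possible because the parental libraries (1, 2) and clones (1-1 to 2-2) share no replicate numbers. Changes of 2-fold are often missed at this size.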

Other observations

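Some abundant TSSs that passed the test belong to none of the gene lists, and those described here were picked after their values were seen. Ldha, lactate dehydrogenase A, had 4190 and 3720 RPM against 1660, 1120, 1416 and 1560.5 RPM (log2 fold change -1.47, SE 0.20, limma adjusted p = 0.00164). Taldo1, transaldolase of the pentose phosphate pathway, had 925 and 1010 RPM against 323, 227, 283 and 304 RPM (log2 fold change -1.77, SE 0.18, limma adjusted p = 0.000375). Both kept a high level in the clones.

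Dbi, an acyl-CoA-binding protein, had 1099 and 1328 RPM against 368, 411, 304 and 357 RPM (log2 fold change -1.75, SE 0.18, limma adjusted p = 0.000326). Rassf4, a Ras-association domain protein, had 947 and 938 RPM against 90.2, 87.2, 139.9 and 222 RPM (log2 fold change -2.90, SE 0.35, limma adjusted p = 0.000942), and Prrg4, a transmembrane Gla protein, 487 and 391 RPM against 37.2, 29.1, 53.2 and 32.1 RPM (log2 fold change -3.53). Sod3, the extracellular superoxide dismutase, had 521 and 513 RPM against 173, 97.6, 171 and 290.5 RPM (log2 fold change -1.60). S100a10, a partner of annexin A2, had 2760 and 2880 RPM against 1610, 1600, 1226 and 1198 RPM (log2 fold change -1.02). Each of these was lower in every clone than in both parental libraries, as was every TSS called lower. In the other direction, Dstn, the actin-severing destrin, had 284 and 232 RPM against 687, 503, 456 and 812 RPM (log2 fold change 1.22, SE 0.25, limma adjusted p = 0.0177), and Nucb2, a calcium-binding secretory protein, had 68.6 and 49.4 RPM against 163, 154, 194 and 194 RPM (log2 fold change 1.57).

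Of 7 aminoacyl-tRNA synthetase genes with a tested main TSS, 3 were higher and the median log2 fold change was 0.75, against -0.17 for all genes. This group was formed after its values were seen. Yars had 54.7 and 34.7 RPM against 111, 96.6, 114 and 92.9 RPM (log2 fold change 1.23, SE 0.23, limma adjusted p = 0.0109), Mars had 50.1 and 55.5 RPM against 83.7, 88.9, 138 and 125 RPM (log2 fold change 1.001) and Aars had 40.3 and 32.1 RPM against 93.9, 62.4, 73.4 and 63.9 RPM (log2 fold change 0.99). Wars (0.75), Sars (0.08), Kars (-0.13) and Dars (-0.46) were not called. Of 4 other genes of the amino acid response, Ifrd1 was higher (1.33), and Psat1 (0.37), Ddit4 (0.18) and Slc3a2 (0.12) were not called. Of 6 genes of glycolysis and lactate transport, Ldha alone was called. Gapdh (-0.07), Gpi (-0.11), Pfkl (-0.17), Aldoa (0.35) and Slc16a1 (0.36) were not.

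Of 3 other genes that respond to NFE2L2, 1 was higher, 1 lower and 1 not called: Slc48a1, a haem transporter, was higher with 45.5 and 39.7 RPM against 80.1, 106, 114 and 149 RPM (log2 fold change 1.35, SE 0.26, limma adjusted p = 0.0115), Taldo1 was lower as given above, and Fth1, the ferritin heavy chain, had 8397 and 7707 RPM against 13708, 14022, 13651 and 27307 RPM without a call (log2 fold change 1.02, limma adjusted p = 0.0784).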
